A study of Mus musculus with 15 samples.

Results

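Cholesterol synthesis, uptake and efflux genes were followed in mouse mammary gland organoids cultured with beads that carried either fibroblast growth factor 10 (FGF10) or, as the protein control, bovine serum albumin (BSA). The set held 32 genes, chosen by symbol, of the 54456 genes in the deposited count table, and all 32 were found there. They comprised 8 mevalonate and isoprenoid enzymes, 12 squalene and sterol enzymes, 4 genes of the transcription factor SREBP2 and its regulators, 4 genes of uptake and intracellular transport, and 4 of the liver X receptor (LXR) arm, efflux and esterification. All 32 passed the filter on low counts that left 18140 genes for testing.

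Animal cells build cholesterol from acetyl-CoA through mevalonate, isoprenoid units, squalene and lanosterol. When sterol in the endoplasmic reticulum is low, SCAP carries SREBP2 to the Golgi, where it is cut and released to switch on the genes of synthesis and uptake; when sterol is high, the INSIG proteins hold SCAP back. Excess sterol is turned into oxysterols that activate LXR, which raises the pumps ABCA1 and ABCG1, and excess cholesterol is also stored as esters. In the mammary gland, epithelial cells need cholesterol for the membranes of growing ducts and, during lactation, for milk fat globules.

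The organoids were wild type, labelled as mammary epithelial cells, and grown in DMEM/F12 medium with an insulin, transferrin and selenium supplement in every group. RNA came from 5 groups of 3 libraries: 0 h, BSA at 36 h, FGF10 at 36 h, BSA at 72 h and FGF10 at 72 h. No label says which animals or cultures the libraries came from, so the p-values measure only the spread between these libraries, which may be technical. The study asked whether epithelial cells changed towards a mesenchymal state while migrating together, and the sterol genes were not named in its design text.

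The libraries held 11965322 to 24261233 counts, of which the 32 genes took 0.118% to 0.291%. Mitochondrial transcripts took 2.16% to 2.59% of counts at 0 h, 2.02% to 3.43% with BSA at 36 h and 2.21% to 2.60% with BSA at 72 h. They took 3.90% to 4.55% with FGF10 at 72 h, and 3.60% and 3.97% in 2 libraries of FGF10 at 36 h, while FGF10 36 h replicate 4 stood apart with 1.11%. The BSA 72 h libraries titled 2_1 and 2_2 differed by more than counting noise, with a chi-square per degree of freedom of 4.60, the lowest of the 15 replicate pairs (the others ran from 10.5 to 157). Their titles share the number 2 and may mark 2 libraries of 1 culture, which the labels do not say; if they do, BSA at 72 h holds 2 independent samples and its p-values are too small. The 6 epithelial markers summed to 18631 to 25015 CPM (counts scaled to 1000000 per library) at 0 h, 12603 to 19261 with BSA and 17671 to 21094 with FGF10 at 36 h, and 13078 to 13999 with BSA and 23405 to 27847 with FGF10 at 72 h. Macrophage and immune markers summed to 1428 to 1850 CPM at 0 h, 149 to 214 with BSA at 36 h, 77.5 to 204 with FGF10 at 36 h, 335 to 418 with BSA at 72 h and 76.9 to 127 with FGF10 at 72 h. Adipocyte markers summed to 58.1 to 532 CPM at 0 h and 302 to 320 with BSA at 72 h, against at most 46.5 in the 9 libraries of the other groups. In bulk RNA, fewer cells of a type and less RNA per cell cannot be told apart.

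Promoter sequence bears on these genes because SREBP2 acts at short sterol regulatory elements close to the start site. The promoters shown are those of Hmgcs1, whose enzyme condenses acetoacetyl-CoA with acetyl-CoA, and of Insig1 and Insig2, which encode the paired sterol-sensing retention proteins and moved in opposite directions in culture. Capitals mark TCACNCCAC, the sterol regulatory element searched for, and the CCAAT box, which reads ATTGG where it lies on the other strand. The sequences are from RefSeq on GRCm38.p6, 5′ to 3′ on the gene's strand, and cover the 250 bases before the start: chr13:119690101-119690350 on the plus strand for Hmgcs1, chr5:28071162-28071411 on the plus strand for Insig1, and chr1:121332590-121332839 on the minus strand for 1 of the 3 Insig2 promoters in the RefSeq table.
Hmgcs1: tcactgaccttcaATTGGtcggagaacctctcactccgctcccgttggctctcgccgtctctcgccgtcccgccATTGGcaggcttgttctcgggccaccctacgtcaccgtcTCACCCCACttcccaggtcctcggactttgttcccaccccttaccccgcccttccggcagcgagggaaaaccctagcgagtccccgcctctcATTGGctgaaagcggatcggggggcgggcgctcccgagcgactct
Insig1: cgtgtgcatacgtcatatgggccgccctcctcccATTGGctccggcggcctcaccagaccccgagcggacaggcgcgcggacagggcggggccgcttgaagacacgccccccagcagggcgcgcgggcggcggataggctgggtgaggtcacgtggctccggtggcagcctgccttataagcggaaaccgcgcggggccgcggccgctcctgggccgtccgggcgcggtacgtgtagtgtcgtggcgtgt
Insig2: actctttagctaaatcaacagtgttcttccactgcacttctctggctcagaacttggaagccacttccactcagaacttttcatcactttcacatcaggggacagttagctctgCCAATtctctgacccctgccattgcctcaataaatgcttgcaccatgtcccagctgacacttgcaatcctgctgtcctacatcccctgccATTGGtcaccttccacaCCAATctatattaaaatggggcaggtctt

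Hmgcs1 had a sterol regulatory element 137 bases before its start and CCAAT boxes at 237, 176 and 45 bases. Insig1 had 1 CCAAT box, 216 bases before the start, and the Insig2 promoter shown had 3, at 136, 46 and 29 bases. The Insig2 promoters not shown had no CCAAT box and held the GC box GGGCGG. Which of them was used in these cells was not tested. TCACNCCAC was found in neither Insig window, which says only that these letters are absent there.

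A RefSeq promoter of 300 bases, 250 before the start to 50 after it, was matched by symbol for 26 of the 32 genes. Abcg1, Stard4, Sqle, Fdft1, Npc1 and Fdps had none in the table. A gene with several promoters was counted for a motif if any of them held it. TCACNCCAC on either strand was in 1 of the 26 (3.85%), that of Hmgcs1, against 1.37% of the 11818 tested genes with a promoter. CCAAT, on either strand, was in 22 of the 26 (84.6%) against 42.7% of the tested genes, and in 10 of 10 of the squalene and sterol enzymes. Of the LXR, efflux and esterification genes, 1 of 3 had it. The GC box GGGCGG was in 23 of the 26 (88.5%) against 65.3%. None of these matches overlapped one another, and they are counts of letters, not bound sites.

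**Figure D1:**
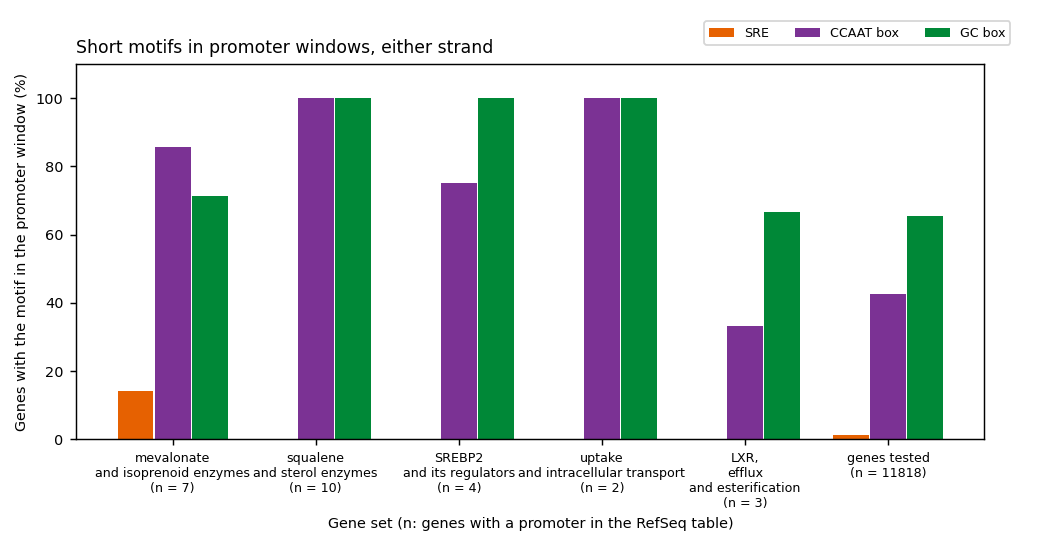
Percent of genes (y axis) whose 300-base RefSeq promoter window held the sterol regulatory element (SRE), the CCAAT box or the GC box on either strand, for the 5 roles and for all tested genes with a promoter (x axis, n below each set). The squalene and sterol enzymes had the CCAAT box in 10 of 10 windows and the tested genes in 42.7%.

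Per length of annotated exon, the genes spanned a wide range of levels. At 0 h, Ebp, the sterol isomerase, was highest at 51.9 ± 6.32 CPM per kilobase (SD, n = 3), followed by Insig2 at 32.8 ± 5.04 and the lysosomal sterol carrier Npc2 at 27.6 ± 1.11. The lowest levels at 0 h were those of the farnesyl diphosphate synthase Fdps at 0.516 ± 0.153, the sterol transporter Stard4 at 0.939 ± 0.333 and the lanosterol synthase Lss at 1.20 ± 0.0277 CPM per kilobase. The place of Lss depends on the length used, which counts all its annotated exon bases (10787). Without division by length, its mean of 12.9 CPM at 0 h was above those of Mvk (9.56) and Insig1 (4.13). With FGF10 at 72 h, Ebp was still highest at 85.4 ± 7.37, and the squalene synthase Fdft1 came next at 59.8 ± 8.99. The level of Insig1 per kilobase went from 1.33 ± 0.397 at 0 h to 10.3 ± 2.30 with FGF10 at 72 h, while Insig2 went from 32.8 ± 5.04 to 20.6 ± 1.75, so Insig2 stayed the higher of the pair. Some levels are uncertain, since fragments in exons shared with another gene were left uncounted: the shared part was 26.7% of the exon bases of Fdps (with Gm43738), 18.8% of Fdft1 (with Ctsb on the other strand), 13.2% of Scap and 12.1% of Hmgcs1 and of Tm7sf2. Idi1 has 5 named pseudogenes in the table, and reads matching several places were also left out.

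**Figure D2:**
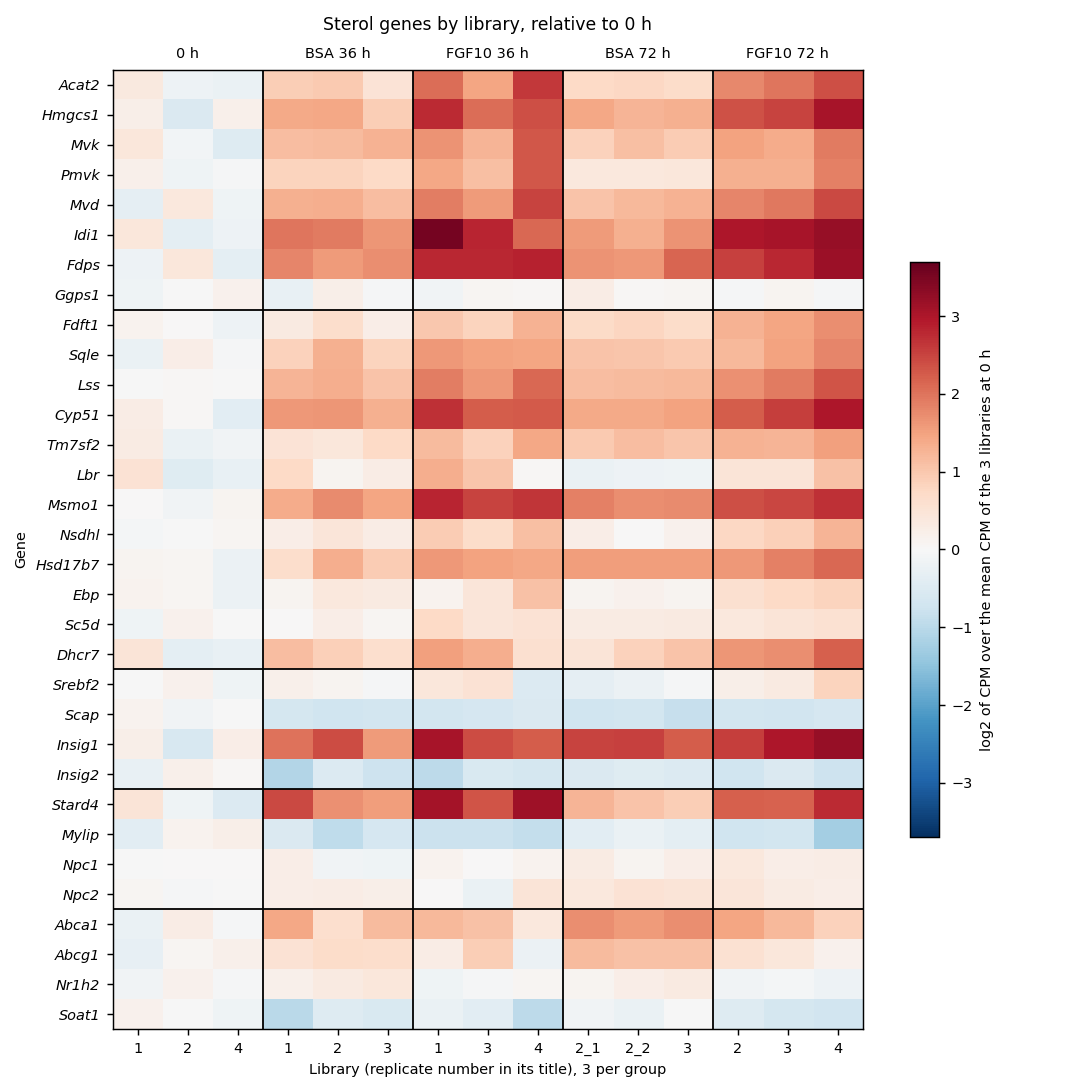
Colour shows log2 of CPM over the mean CPM of the 3 libraries at 0 h, for 32 genes (rows, grouped by role between the lines) in 15 libraries (columns, by group and replicate number). Most enzymes are red in the 12 later libraries and deepest with FGF10, while Scap, Insig2 and Mylip are blue there and Ggps1 stays near white.

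With FGF10 beads, enzyme transcripts of the mevalonate and sterol stages were higher than with BSA beads at both times. At 36 h, 8 of the 20 enzymes rose and none fell, and all 20 differences were positive, with a median log2 difference of 0.62. At 72 h, 12 of 20 rose and none fell, and 19 of 20 were positive, with a median of 0.83. Over all 32 genes, 8 were called higher at 36 h where 2.34% of all tested genes were called (0.954% higher, 1.39% lower). At 72 h 13 were called higher, where 5.99% of all tested genes were called (3.01% higher, 2.98% lower). The set was chosen with earlier results of these data known. These shares, and those against 0 h below, therefore describe the set and are not independent support. A call means an adjusted p (Benjamini-Hochberg, over all 18140 genes) under 0.05 in edgeR's quasi-likelihood test. The median over all tested genes was 0.0016 at 36 h and -0.0071 at 72 h on the log2 scale.

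Summed over the 20 enzymes, the level was 600.4, 648 and 679 CPM at 0 h. With BSA it was 963, 1006 and 1146 CPM at 36 h, and 1059, 1060.2 and 1059.6 at 72 h. With FGF10 it was 1454, 1754 and 1866 CPM at 36 h, and 1551, 1721 and 2142 at 72 h. The 6 FGF10 libraries thus lay above all 9 others. At 72 h the epithelial marker sum and the mitochondrial share were also higher in every FGF10 library than in every BSA library, as given above. The immune, adipocyte, endothelial and fibroblast marker sums were lower, and the part of all these in the enzyme differences was not tested. Of the 6 epithelial markers only Krt5 and Krt14 were called higher at 72 h. Against 0 h, 4 of the 6 had negative differences with FGF10 at 72 h and 2 positive (median log2 -0.39), so the sum does not stand for each marker. At 36 h the groups overlapped in the epithelial sum and the mitochondrial share.

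Library values are given below as CPM in the order of the replicate numbers in the titles: 1, 2 and 4 at 0 h, 1, 2 and 3 for BSA at 36 h, 1, 3 and 4 for FGF10 at 36 h, 2_1, 2_2 and 3 for BSA at 72 h, and 2, 3 and 4 for FGF10 at 72 h.

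Acat2, the cytosolic thiolase that opens the pathway by making acetoacetyl-CoA, was at 54.6, 56.4 and 40.5 CPM with BSA and 120.4, 79.1 and 177 with FGF10 at 36 h. The 72 h values were 48.0, 48.8 and 46.1 with BSA and 98.0, 113 and 152 with FGF10. The groups did not overlap at either time, and the library FGF10 36 h replicate 4 was far above the other 2 of its group. Acat2 rose by a log2 difference of 1.31 ± 0.26 (SE) at 36 h (adjusted p = 0.0184) and 1.34 ± 0.26 at 72 h (adjusted p = 0.0111).

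Hmgcs1, on chromosome 13 at 120151915 to 120169796 (GRCm39, plus strand), was at 52.1, 53.1 and 37.1 CPM with BSA and 134, 82.6 and 103 with FGF10 at 36 h. At 72 h the values were 52.7, 47.4 and 48.9 with BSA and 100.5, 113 and 164 with FGF10. The 6 FGF10 libraries were all above the 6 BSA libraries. The rise was 2.25-fold at 36 h (log2 1.17 ± 0.23, adjusted p = 0.0197) and 2.53-fold at 72 h (log2 1.34 ± 0.23, adjusted p = 0.00653).

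The next enzymes convert mevalonate to the isoprenoid unit. Mvk, the mevalonate kinase, had log2 differences of 0.60 ± 0.25 and 0.64 ± 0.25 at 36 h and 72 h and was not called (adjusted p = 0.21 and 0.141). Pmvk, the phosphomevalonate kinase, was at 46.3, 46.3 and 43.6 CPM with BSA and 70.5, 56.5 and 129 with FGF10 at 36 h, which was not called (adjusted p = 0.0593), and at 34.2, 34.4 and 34.8 against 64.2, 64.2 and 93.9 at 72 h, where it rose by 1.10 ± 0.24 (adjusted p = 0.0176). Mvd, the mevalonate diphosphate decarboxylase, had a difference of 0.77 ± 0.23 at 36 h (adjusted p = 0.0906) and rose by 0.90 ± 0.23 at 72 h (adjusted p = 0.0335). For both genes the FGF10 libraries lay above the BSA libraries at each time.

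Idi1, the isomerase that makes dimethylallyl diphosphate, had the largest difference of the 32 genes at 72 h. It was at 20.1, 16.7 and 21.5 CPM with BSA and 53.4, 56.3 and 63.2 with FGF10, a 2.96-fold rise (log2 1.57 ± 0.28, adjusted p = 0.00822). At 36 h it was at 26.6, 25.7 and 20.8 with BSA and 78.2, 47.3 and 29.7 with FGF10, where the 3 FGF10 libraries were far apart but still above the BSA libraries. That difference was 1.08 ± 0.28 and not called (adjusted p = 0.0572), and without FGF10 36 h replicate 4, the low library, it was 1.36 ± 0.23 (adjusted p = 0.00998).

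Fdps, which joins isoprenoid units into farnesyl diphosphate, was at 7.55, 6.44 and 7.14 CPM with BSA and 15.1, 14.97 and 15.7 with FGF10 at 36 h, and rose by 1.11 ± 0.21 (adjusted p = 0.0138). At 72 h it rose by 1.02 ± 0.21 (adjusted p = 0.0138), from 6.93, 6.66 and 9.64 to 12.6, 14.95 and 19.6. Ggps1, which makes geranylgeranyl diphosphate for protein prenylation and lies off the sterol branch, was between 26.8 and 39.0 CPM in all 15 libraries. Its differences were 0.02 ± 0.13 at 36 h and -0.13 ± 0.13 at 72 h, and its groups overlapped at both times.

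Of the squalene and sterol enzymes, 5 of 12 rose at 36 h (Fdft1, Lss, Cyp51, Msmo1 and Nsdhl) and 6 of 12 at 72 h (the same 5 and Dhcr7). Msmo1, the methylsterol oxidase that removes methyl groups from lanosterol derivatives, had the smallest p of the 32 genes at 36 h. It was at 82.3, 106 and 87.3 CPM with BSA and 222, 178 and 195 with FGF10, with a gap between the groups, and rose by 1.11 ± 0.14 (adjusted p = 0.00141). At 72 h it was at 114, 104 and 106 with BSA and 163, 174 and 205 with FGF10, and rose by 0.75 ± 0.14 (adjusted p = 0.00819). Msmo1 lies on chromosome 8 at 65171173 to 65186826 (GRCm39, minus strand).

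Cyp51, the lanosterol demethylase, was at 60.8, 62.1 and 49.8 CPM with BSA and 129.7, 94.2 and 96.7 with FGF10 at 36 h (log2 0.89 ± 0.20, adjusted p = 0.03). Its 72 h values were 53.5, 53.6 and 56.2 against 95.1, 117 and 161 (log2 1.20 ± 0.20, adjusted p = 0.00505). Fdft1 rose by 0.64 ± 0.16 and 0.78 ± 0.16 at the 2 times (adjusted p = 0.0465 and 0.0128), and Lss by 0.66 ± 0.16 and 0.83 ± 0.16 (adjusted p = 0.0426 and 0.00997). The 36 h calls of both were lost in 14 of 23 alternatives. Nsdhl, a sterol dehydrogenase of the demethylation complex, rose by 0.59 ± 0.14 and 0.83 ± 0.14 (adjusted p = 0.0394, lost in 12 of 23 alternatives, and 0.00505). All 5 of these enzymes had FGF10 libraries above BSA libraries at both times.

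Dhcr7, the reductase of the last step, was at 35.7, 30.1 and 25.3 CPM with BSA and 46.5, 41.7 and 24.8 with FGF10 at 36 h, so the groups overlapped through FGF10 replicate 4. At 72 h it was at 22.8, 29.6 and 33.8 with BSA and 50.9, 53.7 and 75.5 with FGF10, with no overlap, and rose by 1.06 ± 0.26 (adjusted p = 0.0321). Lbr, a sterol reductase that also anchors chromatin to the nuclear membrane, showed the same layout: 36.8, 23.8 and 26.5 CPM against 55.4, 44.7 and 22.5 at 36 h, and 18.4, 19.3 and 19.6 against 30.5, 30.8 and 46.7 at 72 h. Lbr was not called at 72 h (log2 0.92 ± 0.32, adjusted p = 0.102).

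Sqle, the squalene epoxidase, a rate-limiting enzyme, had a difference of 0.50 ± 0.17 at each time and was not called (adjusted p = 0.125 and 0.0902). The other sterol enzymes that were not called at either time had positive differences too. Tm7sf2, a sterol reductase, had 0.60 ± 0.18 and 0.30 ± 0.18, and Hsd17b7, a 3-ketosteroid reductase, had 0.50 ± 0.17 and 0.33 ± 0.17. Ebp had 0.33 ± 0.19 and 0.59 ± 0.19, and Sc5d, the sterol desaturase, had 0.45 ± 0.12 and 0.15 ± 0.12.

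**Figure D3:**
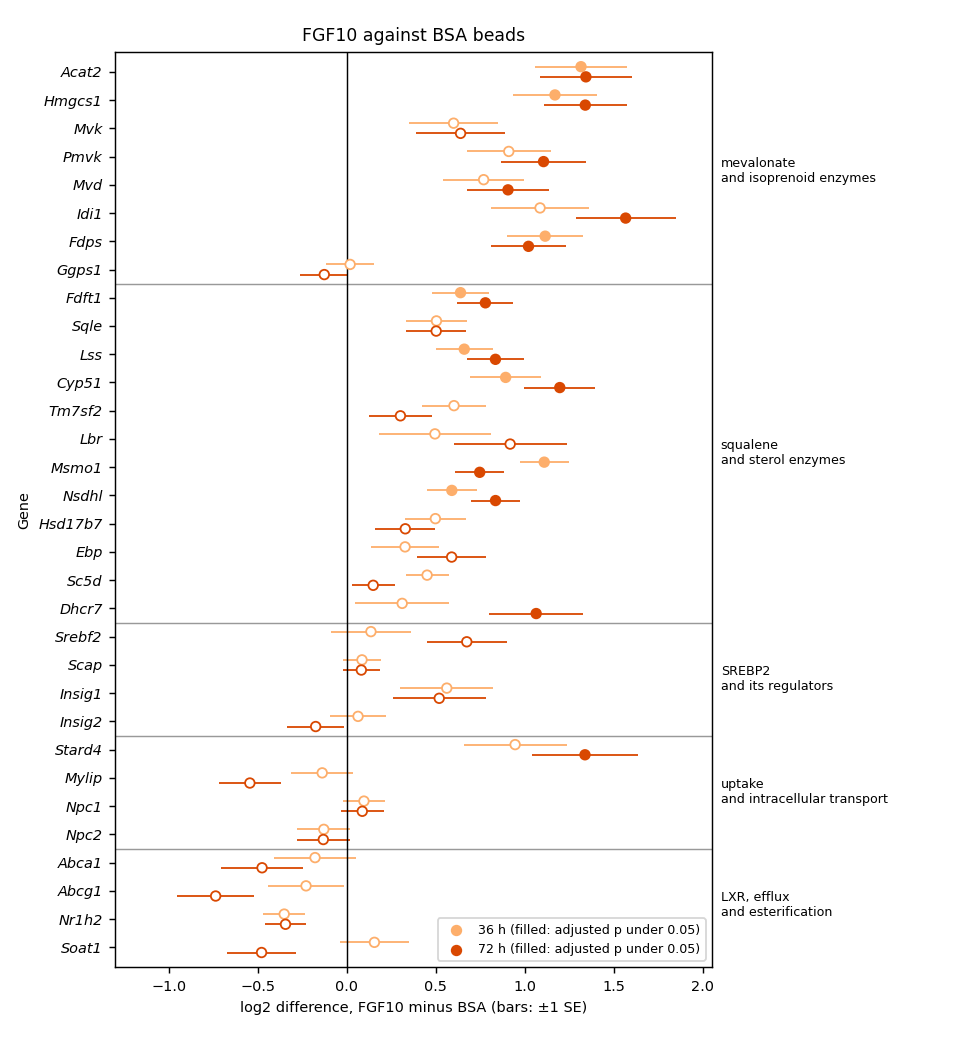
log2 difference of FGF10 minus BSA (x axis, bars ±1 SE) for each gene (y axis, grouped by role) at 36 h (light) and 72 h (dark), with filled points at an adjusted p under 0.05. Filled points lie right of 0, and apart from Stard4 at 72 h they belong to enzymes; the LXR, efflux and esterification genes have open points left of 0 except Soat1 at 36 h.

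None of the 4 genes of SREBP2 and its regulators was called for FGF10 against BSA at either time. Srebf2, which encodes SREBP2, was at 151, 142 and 128 CPM with BSA and 178, 190.4 and 93.9 with FGF10 at 36 h, where FGF10 replicate 4 was the lowest of the 6. At 72 h it was at 104.6, 115 and 127 with BSA and 152, 166 and 234 with FGF10, which did not overlap (log2 0.67 ± 0.22, adjusted p = 0.0858, and 0.00305 to 0.378 over the alternatives). Insig1, itself a target of SREBP2, had differences of 0.56 ± 0.26 and 0.52 ± 0.26 (adjusted p = 0.266 and 0.245). Insig2 had 0.06 ± 0.16 and -0.18 ± 0.16, and Scap, the sterol-sensing escort, had 0.08 ± 0.10 at each time.

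Of the uptake and transport genes, Stard4, which moves sterol through the cytosol and is induced by SREBP2, was at 28.5, 16.9 and 15.3 CPM with BSA and 44.5, 26.1 and 46.4 with FGF10 at 36 h (log2 0.94 ± 0.29, adjusted p = 0.0989). At 72 h it was at 12.4, 10.8 and 9.87 with BSA and 24.2, 23.8 and 35.7 with FGF10, without overlap, and rose 2.53-fold (log2 1.34 ± 0.30, adjusted p = 0.0203). Mylip, an LXR-induced ubiquitin ligase that sends the lipoprotein receptor to degradation, was at 31.4, 34.2 and 31.98 CPM with BSA and 24.4, 25.5 and 16.997 with FGF10 at 72 h. Its difference of -0.55 ± 0.18 was not called (adjusted p = 0.078). Npc1 and Npc2, which export cholesterol from lysosomes, had differences between -0.13 and 0.10 at the 2 times, with overlapping groups.

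The LXR, efflux and esterification genes pointed the other way at 72 h, though none was called. Abca1, which loads cholesterol onto lipid-poor apolipoprotein, was at 105.05, 95.04 and 107 CPM with BSA and 88.3, 73.9 and 58.6 with FGF10 at 72 h (log2 -0.48 ± 0.23, adjusted p = 0.222). Abcg1, which exports cholesterol to mature lipoproteins, was at 47.3, 44.9 and 44.6 with BSA and 30.7, 28.045 and 23.3 with FGF10 (log2 -0.74 ± 0.22, adjusted p = 0.0554, and 0.000124 to 0.25 over the alternatives). Nr1h2, which encodes LXR beta, had -0.34 ± 0.12 (adjusted p = 0.0917), and Soat1, which esterifies cholesterol, had -0.48 ± 0.19 (adjusted p = 0.145). For each of the 4 genes the 3 FGF10 libraries were below the 3 BSA libraries at 72 h, as was the case for 21.7% of all tested genes. At 36 h only Nr1h2 of the 4 had groups that did not overlap, with 92.5, 103 and 109 CPM with BSA and 73.4, 79.8 and 85.3 with FGF10.

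Counting groups without overlap over all 32 genes, 15 were higher with FGF10 at 36 h and 1 lower, where 9.88% of tested genes were higher and 9.53% lower in this way. At 72 h, 22 were higher and 6 lower, where 21.9% and 21.7% of tested genes were. In the main edgeR fit of the 5 groups, no gene of the 32 was called lower for FGF10 against BSA at either time. At an unadjusted p under 0.05, 1 was lower at 36 h (Nr1h2) and 4 at 72 h (Mylip, Abcg1, Nr1h2 and Soat1). Neither here nor below was the share of all tested genes at this cut, or under other tools, set beside such counts. They are therefore not read as a result about the set. At 72 h DESeq2 called 3 lower (Mylip, Abcg1 and Nr1h2) while limma voom, and edgeR on only the groups compared, called these with Abca1 and Soat1, and edgeR with DESeq2's size factors or with no filter called Abcg1. All 7 tested macrophage and immune markers and 3 of the 6 adipocyte markers were also called lower with FGF10 at 72 h, and their part in these differences was not tested.

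The calls depended on single libraries. At 36 h the count of 8 went to 1 without BSA replicate 3, 3 without FGF10 replicate 1, 4 without BSA replicate 2 or BSA 72 h replicate 2_1, 5 without BSA 72 h replicate 2_2, BSA 72 h replicate 3 or FGF10 72 h replicate 3, and 13 without FGF10 replicate 3. Without FGF10 replicate 4, the library with few mitochondrial counts, it was 7, but the calls of Fdft1, Lss and Nsdhl were lost and others, such as Idi1, were gained. At 72 h the count of 13 went to 4 without FGF10 replicate 4 (Hmgcs1, Idi1, Cyp51 and Nsdhl), 6 without BSA replicate 2_1 and 7 without BSA replicate 2_2 or 3. With BSA 72 h 2_1 and 2_2 summed into 1 library, 4 members were called at 36 h and 7 at 72 h. Of the other 36 h calls, Cyp51 was lost in 6 of the 23 alternatives, Hmgcs1 in 3, Acat2 and Fdps in 2 and Msmo1 in 1. Of the 72 h calls, Mvd and Dhcr7 were lost in 7, Pmvk, Fdft1 and Stard4 in 5, Fdps in 4, Acat2 in 3, and Lss and Msmo1 in 1. FGF10 72 h replicate 4 was the highest of its group for 19 of the 20 enzymes, and replicate 2 was the lowest for 18.

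The FGF10 effect was next compared between the 2 times. None of the 32 genes was called for the change of the effect from 36 h to 72 h, where 0% of all tested genes were called by edgeR. At an unadjusted p under 0.05 only Soat1 passed, with a change of -0.63 ± 0.27, and DESeq2 and limma voom called 0 of the 32. The largest enzyme changes were those of Dhcr7 at 0.75 ± 0.37, Idi1 at 0.48 ± 0.39 and Lbr at 0.42 ± 0.44, and Msmo1 had -0.36 ± 0.19.

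**Figure D4:**
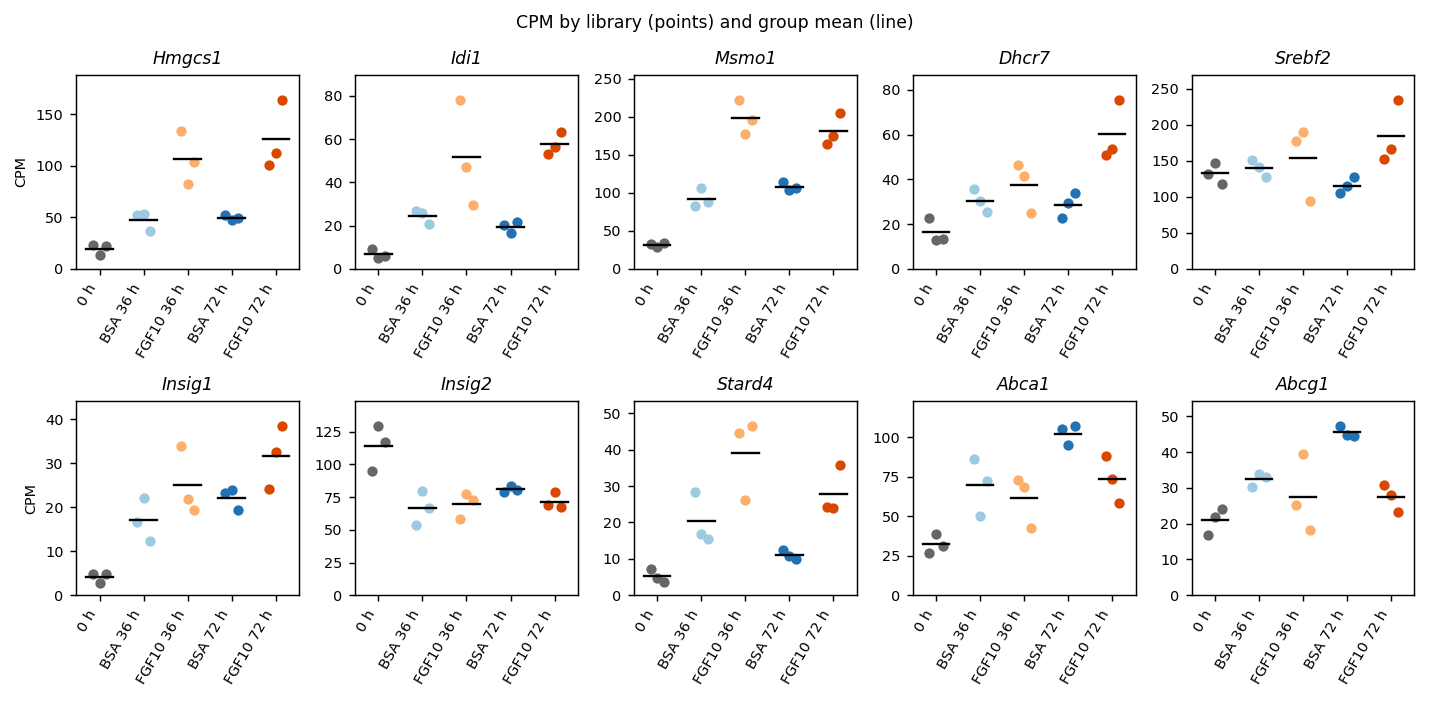
CPM (y axis, from 0) of 10 genes in each of the 15 libraries (points) with the group means (lines), by group (x axis). Hmgcs1, Idi1 and Msmo1 step up from 0 h to the BSA groups and again to the FGF10 groups, and Abcg1 and Abca1 are highest with BSA at 72 h.

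The larger contrast was with 0 h, which all later groups shared as the comparison. Of the 32 genes, 22 were called with BSA at 36 h (18 higher, 4 lower), where 27.1% of all tested genes were called (12.7% higher, 14.4% lower). With FGF10 at 36 h 26 were called (22 higher, 4 lower) against 39.8% (19.3% higher, 20.5% lower). At 72 h 20 were called with BSA (18 higher, 2 lower) against 25.2% (12.2% higher, 13% lower), and 25 with FGF10 (21 higher, 4 lower) against 29.9% (13.8% higher, 16% lower). Of the 20 enzymes, 14, 19, 13 and 18 rose in these 4 comparisons and none fell. The median log2 difference of the enzymes was 0.95 (BSA) and 1.62 (FGF10) at 36 h, and 0.99 and 1.74 at 72 h. The medians over all tested genes lay between -0.018 and 0.011.

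Hmgcs1, at 22.9, 13.6 and 22.6 CPM at 0 h, rose at 36 h by a log2 difference of 1.26 ± 0.24 (BSA) and 2.42 ± 0.24 (FGF10), and at 72 h by 1.32 ± 0.24 (BSA) and 2.66 ± 0.25 (FGF10). Msmo1, at 32.1, 28.5 and 34.0 at 0 h, rose by 1.54 ± 0.14, 2.65 ± 0.15, 1.77 ± 0.14 and 2.52 ± 0.14 in the same order. Idi1, at 9.13, 5.23 and 5.94 at 0 h, had the largest rise of the 32 genes, 3.07 ± 0.30 with FGF10 at 72 h. In each case no later library overlapped with 0 h. The mean level was lowest at 0 h for 18 of the 20 enzymes, the exceptions being Ggps1 and Lbr, and highest with FGF10 at 72 h for 13, with FGF10 at 36 h for 6 and with BSA at 72 h for Ggps1.

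Some enzymes were called above 0 h with FGF10 at both times and with BSA at neither: Nsdhl (0.92 ± 0.14 and 0.98 ± 0.14 with FGF10, 0.33 ± 0.14 and 0.15 ± 0.14 with BSA), Ebp (0.60 ± 0.19 and 0.72 ± 0.19 against 0.27 ± 0.19 and 0.13 ± 0.19) and Sc5d (0.57 ± 0.12 and 0.47 ± 0.12 against 0.12 ± 0.12 and 0.32 ± 0.12). The direct test of FGF10 against BSA called Nsdhl at both times, but neither Ebp nor Sc5d at either. Ggps1 was not called in any of the 4 comparisons, with differences between -0.02 and 0.14.

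The INSIG genes moved apart. Insig1, on chromosome 5 at 28276361 to 28283660 (GRCm39, plus strand), was at 4.77, 2.71 and 4.90 CPM at 0 h, and at 16.7, 22.1 and 12.3 with BSA and 34.0, 21.98 and 19.4 with FGF10 at 36 h. Its 72 h values were 23.2, 23.9 and 19.4 with BSA and 24.2, 32.5 and 38.4 with FGF10. All 12 later libraries were above 0 h, and Insig1 rose by 2.01 ± 0.28, 2.57 ± 0.29, 2.39 ± 0.28 and 2.91 ± 0.29 for BSA and FGF10 at 36 h and BSA and FGF10 at 72 h (largest adjusted p = 0.000143).

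Insig2, on chromosome 1 at 121232082 to 121260318 (GRCm39, minus strand), was at 94.8, 129 and 117 CPM at 0 h. It was at 53.6, 79.7 and 66.5 with BSA and 58.1, 77.7 and 72.9 with FGF10 at 36 h, and at 79.0, 83.4 and 80.3 with BSA and 68.9, 78.6 and 67.4 with FGF10 at 72 h. All 12 later libraries were below 0 h, and Insig2 fell by 0.77 ± 0.16, 0.71 ± 0.16, 0.49 ± 0.16 and 0.67 ± 0.16 on the log2 scale in the same order (largest adjusted p = 0.0341). Scap, at 55.9, 46.3 and 49.7 at 0 h and 28.2 to 35.2 in the later libraries, fell by 0.69 ± 0.10, 0.61 ± 0.10, 0.76 ± 0.10 and 0.67 ± 0.10. Srebf2 was called in none of the 9 comparisons, with differences from 0 h between -0.20 and 0.48.

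Stard4, at 7.31, 4.74 and 3.69 CPM at 0 h, rose at 36 h by 1.93 ± 0.31 (BSA) and 2.88 ± 0.32 (FGF10), and at 72 h by 1.06 ± 0.31 (BSA) and 2.40 ± 0.31 (FGF10). Mylip was called lower in the FGF10 groups and with BSA at 36 h (-0.68 ± 0.17, -0.82 ± 0.17 and -0.87 ± 0.18 for BSA 36 h, FGF10 36 h and FGF10 72 h), and was at -0.33 ± 0.17 with BSA at 72 h (adjusted p = 0.188). Npc2 was called with BSA at 72 h (0.47 ± 0.15, adjusted p = 0.0318, lost in 8 of 23 alternatives) and in no other comparison, and Npc1 in none.

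The efflux pump Abca1 rose beside the synthesis enzymes. It was at 26.9, 38.7 and 31.0 CPM at 0 h, and no later library was below 42.4. The log2 rise was 1.12 ± 0.23 (BSA) and 0.94 ± 0.23 (FGF10) at 36 h, and 1.67 ± 0.23 (BSA) and 1.20 ± 0.23 (FGF10) at 72 h (largest adjusted p = 0.0055). Abcg1 rose with BSA, by 0.63 ± 0.22 at 36 h (adjusted p = 0.0429, lost in 12 of 23 alternatives) and 1.12 ± 0.22 at 72 h (adjusted p = 0.00157), and had 0.40 ± 0.22 and 0.38 ± 0.22 with FGF10 (adjusted p = 0.156 and 0.201). Soat1 was called lower with BSA at 36 h and with FGF10 at both times (-0.66 ± 0.19, -0.50 ± 0.19 and -0.60 ± 0.19), and Nr1h2 was called in none. The adjusted p of Soat1 was 0.0189, 0.0476 and 0.027 in this order, and the calls were lost in 2, 17 and 4 of 23 alternatives. Among the other differences from 0 h named above, the calls of Insig2 and Stard4 with BSA at 72 h were lost in 6 and 5, that of Ebp with FGF10 in 4 at 36 h and 1 at 72 h, and that of Sc5d with FGF10 at 36 h in 1. Macrophage and immune markers were far higher at 0 h than later, as given above. Fibroblast markers summed to 93.5 to 623 CPM at 0 h and 12.3 to 79.3 later. Endothelial markers summed to 41.1 to 217 CPM at 0 h, and at 36 h to 8.33 to 35.9 with BSA and 4.12 to 13.3 with FGF10. At 72 h they summed to 39.9 to 87.6 with BSA, which overlapped 0 h, and 2.87 to 11.7 with FGF10. The part of any of these cell types in the differences from 0 h was not tested.

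**Figure D5:**
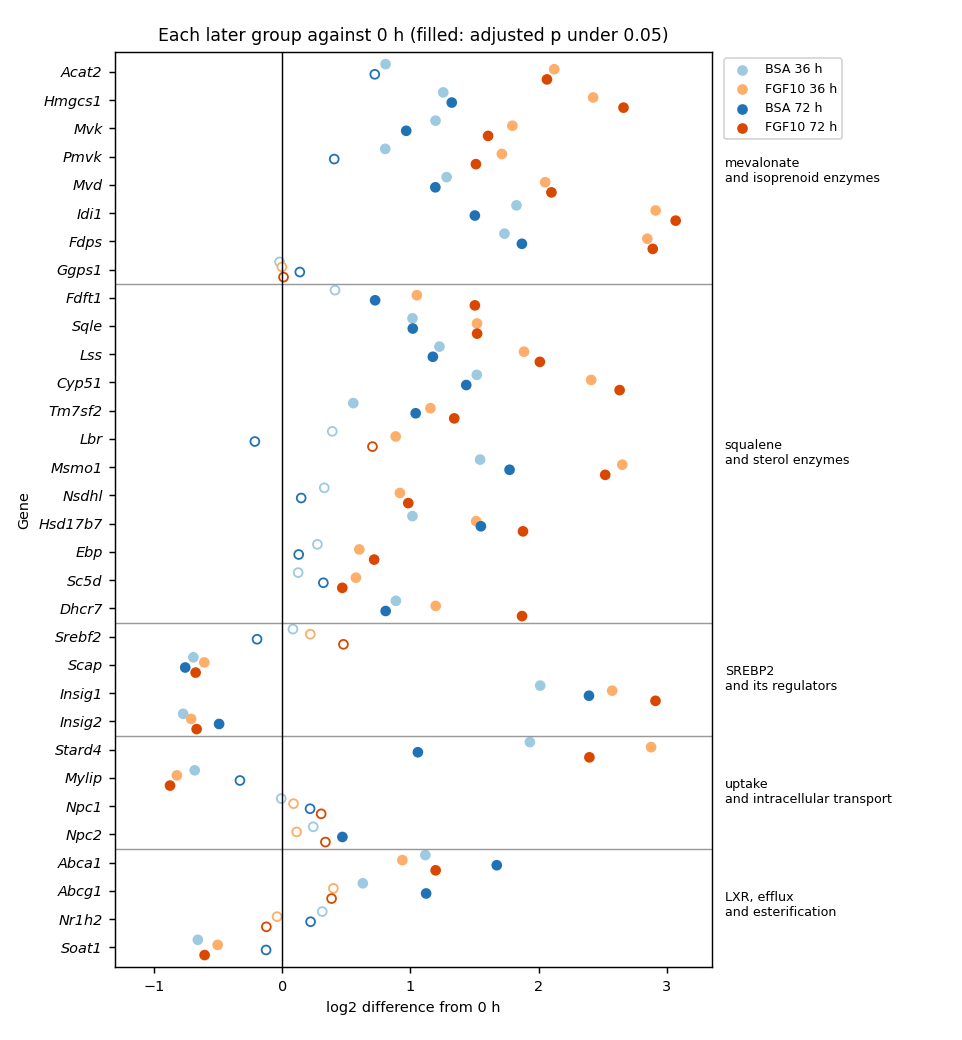
log2 difference from 0 h (x axis) for each gene (y axis, grouped by role) in the 4 later groups (colours), with filled points at an adjusted p under 0.05; the 4 comparisons share the 0 h libraries. Points of most enzymes lie right of 0, and Scap, Insig2, Mylip and Soat1 lie left of 0 in all 4 groups.

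Levels at 72 h were then compared with those at 36 h. With BSA, 14 of the 32 genes had groups without overlap. Of these, 9 were higher at 72 h (Fdft1, Tm7sf2, Hsd17b7, Sc5d, Mylip, Npc2, Abca1, Abcg1 and Soat1) where 14.3% of tested genes were, and 5 lower (Mvk, Pmvk, Lbr, Srebf2 and Stard4) where 16.5% were. By the test, 0 of the 32 were called by edgeR and 0.469% of all tested genes were. At an unadjusted p under 0.05, Soat1, Hsd17b7, Abca1, Abcg1 and Tm7sf2 were higher and Stard4 was lower at 72 h. DESeq2 called 0 and limma voom 6. With FGF10, 4 were higher without overlap (Fdft1, Hsd17b7, Dhcr7 and Npc1) where 11.2% of tested genes were, and 0 lower where 9.9% were. By the test, 0 of the 32 were called where 1.91% of all tested genes were, and 3 were higher at an unadjusted p under 0.05 (Hsd17b7, Dhcr7 and Fdft1), with 0 by DESeq2 and 2 by limma voom. Dhcr7 had the largest such difference with FGF10, 0.67 ± 0.26 (adjusted p = 0.213).

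Of 36 further genes of the pathway and its neighbours, none was called higher and 1 lower for FGF10 against BSA at each time. This was 2.78% of them, where 2.34% of all tested genes were called at 36 h and 5.99% at 72 h. The medians of the 36 genes were -0.10 at 36 h and 0.06 at 72 h. The gene called lower was Lipa, the lysosomal lipase that frees cholesterol from esters. It was at 278, 152 and 169 CPM with BSA and 40.1, 51.9 and 40.7 with FGF10 at 36 h, a fall of 2.17 ± 0.34 on the log2 scale (adjusted p = 0.00666). Its 72 h values were 296, 297 and 195 with BSA and 136, 109 and 47.9 with FGF10, and fell by 1.43 ± 0.33 (adjusted p = 0.0255, lost in 7 of 23 alternatives). Lipa was at 57.3, 42.6 and 42.9 CPM at 0 h, when the sum of the macrophage and immune markers was highest. Whether immune cell content had a part in the falls of Lipa was not tested.

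Fatty acid synthesis is driven by the related factor SREBP1. Of 12 such genes, 2 were called higher with FGF10 at 36 h and 4 at 72 h, and none lower, with medians of 0.65 and 0.53. Over all tested genes, 0.954% were called higher at 36 h and 3.01% at 72 h. The 36 h calls were lost in 3 (Elovl6) and 1 (Fasn) of 23 alternatives, and those at 72 h in 6 (Scd2), 5 (Elovl6), 3 (Acly) and 2 (Elovl5). Elovl6, an elongase of saturated fatty acids, rose by 1.10 ± 0.20 and 0.97 ± 0.20 (adjusted p = 0.0103 and 0.0137). Fasn, the fatty acid synthase, rose by 0.89 ± 0.16 at 36 h (adjusted p = 0.00935) and had 0.53 ± 0.16 at 72 h (adjusted p = 0.0556). Acly, which supplies cytosolic acetyl-CoA to both pathways, rose by 1.00 ± 0.19 at 72 h (adjusted p = 0.0108), as did the elongase Elovl5 by 0.79 ± 0.15 (adjusted p = 0.00944) and the desaturase Scd2 by 0.88 ± 0.21 (adjusted p = 0.026).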

How the data were processed

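RNA was measured in 15 libraries of mammary organoids made with a stranded messenger RNA kit, per the labels' protocols. The values used are raw fragment counts per gene, in 1 table that the authors deposited. Per the file headers, featureCounts 2.0.1 assigned read pairs to the exons of each gene name, ignoring strand and leaving out fragments that match several places or genes. The submitters' processing notes name GRCm39, cutadapt 1.9.1, HISAT2 2.2.1, FastQC, DESeq2 and HTSeq, and as the counter the headers were followed in place of HTSeq. Without strand, reads from a gene and its antisense partner cannot be told apart.

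Groups were taken from the titles and treatment labels. The titles of FGF10 at 72 h read FGF0, and the treatment label, FGF10, was used. filterByExpr (minimum count 10, minimum total 15) removed 36316 of 54456 genes and kept 18140. After TMM scaling the counts were tested with edgeR 4.0.16 in R 4.3.3 by the robust quasi-likelihood F test, with 1 fit of the 5 groups (10 residual degrees of freedom, median prior 5.03, common biological coefficient of variation 0.234), and p-values were adjusted by Benjamini-Hochberg over all 18140 genes. CPM are counts scaled to 1000000 per library after TMM. Each SE was obtained by dividing the size of the log2 difference by the root of its F statistic. The procedure was tested on simulated counts in which every gene and group had a biological coefficient of variation of 0.234. The real groups differed in spread, with a median coefficient of variation of the enzymes of 4.52% with BSA and 20.8% with FGF10 at 72 h. The simulation did not cover such unequal spread. Replicates of a group had log CPM correlations of 0.956 to 0.988. Alternatives were limma 3.58.1 voom with sample weights, the DESeq2 1.42.0 Wald test, DESeq2 size factors, other filters, a replicate block, only the groups compared, BSA 72 h 2_1 and 2_2 summed, and each library left out.

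The members and lists were chosen with earlier results of these data known. All 32 members could be named. Of the further sterol and fatty acid lists, those called for FGF10 against BSA could be named, at most 6 a list by smallest p. Promoters were printed for called enzymes with the searched sterol element and for Insig1 and Insig2. Chromosome positions of genes are from the table. Of the marker lists, 6 epithelial genes had 0 called at 36 h and 2 higher at 72 h. Adipocyte (6 genes), macrophage and immune (7 tested of 8), endothelial (6) and fibroblast (6) markers had 1, 1, 0 and 0 called lower at 36 h and 3, 7, 2 and 0 at 72 h, and none higher. Over all tested genes, 1.39% were called lower at 36 h and 2.98% at 72 h.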

Additional observations from a re-analysis of the deposited data

How the results depend on the processing

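For FGF10 against BSA at 36 h, the 8 members called became 17 with limma voom (1 of them lower), 14 with DESeq2, 1 with only the groups compared and 4 with BSA 72 h 2_1 and 2_2 summed, and 1 to 13 with a library left out. At 72 h the 13 became 23 with limma voom, 24 with only the groups compared (5 lower in each) and 7 with 2_1 and 2_2 summed, and 4 to 18 with a library left out. The share of all tested genes called under each alternative was not set beside these counts. A larger or smaller count is therefore not read as a stronger or weaker result for the set. Over the 23 alternatives, none of the 8 calls at 36 h and 4 of the 13 at 72 h (Hmgcs1, Idi1, Cyp51 and Nsdhl) held in every one. At 36 h Msmo1 was lost in 1, with only the groups compared (adjusted p = 0.0523). Lipa held in all 23 at 36 h and was lost in 7 at 72 h. The 0 members called between BSA 36 h and 72 h became 6 with limma voom and 2 with only the groups compared, and between FGF10 36 h and 72 h became 2 with limma voom and 1 with the replicate block. Counts against 0 h stayed within 1.5 times of those given, with 16 of 22 (BSA 36 h), 22 of 26 (FGF10 36 h), 15 of 20 (BSA 72 h) and 23 of 25 (FGF10 72 h) members held in every alternative. Some settings had fewer libraries or degrees of freedom, and the cause of these differences was not tested.

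Of the uncalled differences between FGF10 and BSA at 36 h, limma voom turned that of Ggps1 to -0.0116 and that of Insig2 to -0.0178. With a library left out, the differences ranged from -0.0790 to 0.148 for Ggps1, -0.0469 to 0.392 for Srebf2, -0.0612 to 0.212 for Insig2, -0.347 to 0.0169 for Npc2 and -0.369 to 0.0289 for Abca1. Scaling by DESeq2 size factors moved the median of all genes by less than 0.1 and turned no direction.

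The replicate block gave 7 members at 36 h and 13 at 72 h. It did not call Fdft1, Lss and Nsdhl at 36 h or Mvd at 72 h, and 5 of the 8 and 12 of the 13 calls were shared. No label says whether the titles' numbers pair the libraries, and the correlations do not settle it. Of 21 same-number pairs, 9 correlated above 0.1 (range -0.158 to 0.449). Among them were the 2 pairs that the 36 h comparison shares, replicates 1 (0.449) and 3 (0.286). Of 15 libraries, 9 correlated best with their own number, a hint from the data and not the design. Depth limits Fdps and, at 0 h, Insig1, Stard4 and Idi1, the members with the fewest counts. Where leaving out a library left a group with 2, the spread was pooled over the groups.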
